A study of Mus musculus with 6 samples.

Results

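The cells described here were untreated neonatal mouse neural stem and progenitor cells (NSPCs), in the 2 libraries whose treatment label is control, titled Con and control NSC 8. They were chosen by label alone and are 2 of the 6 libraries of the series. The study exposed such cells for 48 h to paraquat (PQ), a herbicide that makes superoxide by redox cycling, or to N-acetylcysteine (NAC), a thiol antioxidant, and asked how oxidative stress acts on neural progenitors. The 2 PQ libraries, titled PQ and PQ NSC 9, and the 2 NAC libraries, titled NAC NSC 10 and NAC NSC 13, served here only as a comparison. Gene expression was measured by RNA sequencing of bulk cultures, with 1 table of expected counts and FPKM per library.

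Con and PQ carry the genotype label Ink/Ark knockout and the strain label C57BL/6, and their labels give 20 ng/ml of EGF and bFGF and, for PQ, a dose of 5 µM. All 6 libraries were grown in N2 medium with EGF and bFGF by their labels, but the other 4 have no genotype, strain or dose label. For NAC, the study's methods give 5 mM. They describe 1 culture for such work, a line from the subventricular zone of newborn mice that is immortalised and null for Ink/Arf. By this description the untreated cells carry the deletion too. The methods call the culture a mixture of stem cells, neuronal precursors and oligodendroglial progenitors. They state neither how many animals gave rise to it nor whether it was cloned. The study states that RNA sequencing was done in 2 replicates, but not whether the libraries of a group came from separate cultures, so any p-value here measures only the spread between these samples. The control libraries also differ in their labels for RNA extraction, sequencer and read processing, and so do the PQ libraries. These differences cannot be told apart from a difference between cultures. The expected counts summed to 9849392 in Con and 10040827 in control NSC 8. Across the PQ and NAC libraries they ranged from 9680436 to 10698241. Levels of different genes are compared only as FPKM, which is scaled by transcript length, and pairs of FPKM values are given with Con before control NSC 8.

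Neural stem cells of the subventricular zone lie beside the lateral ventricles and give rise to neurons, astrocytes and oligodendrocytes. In culture, EGF and bFGF keep them dividing, and they carry intermediate filaments such as nestin and vimentin and the transcription factor SOX2. The Cdkn2a locus encodes p16INK4a and p19ARF, which restrain the cell cycle through the RB and p53 pathways, and its loss lets such cells divide without limit.

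Cdkn2a, the deleted gene, was nevertheless listed in all 6 tables. It had 137 and 162 expected counts in the control libraries, or 16.6 and 19.1 FPKM, and between 120 and 162 counts across the 6 libraries. The counts are given per gene and do not show which exons they came from, so the deletion could not be checked here. The study reports PCR genotyping of its Ink/Arf null cells. Its neighbours were present as well, with Cdkn2b, which encodes p15INK4b, at 10.8 and 12.9 FPKM and Mtap, an enzyme of methionine salvage, at 78.5 and 80.2 FPKM. Of the other CDK inhibitors, Cdkn1a, which encodes p21, had the highest level, at 243 and 242 FPKM. Trp53 had 67.0 and 82.3 FPKM and Rb1 had 15.5 and 13.8 FPKM. Genes of the Y chromosome were expressed in both libraries, as in male cells. Eif2s3y had 48.8 and 41.5 FPKM and Ddx3y 33.1 and 28.8 FPKM, while Xist, the RNA that silences an X chromosome in female cells, had 6.96 and 5.41 expected counts.

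The tables of the 6 libraries listed 17254 genes with counts in some library, of which 15193 had counts in Con and 15274 in control NSC 8. With FPKM of 1 or more as the mark of expression, 11404 genes were expressed in both control libraries, 224 in Con alone and 231 in control NSC 8 alone. By this mark 10933 of the 21900 protein coding genes of the RefSeq table were expressed in both, the share to set beside the list counts below. Of the 11404, 6437 reached 10 FPKM in both libraries, 676 reached 100 and 29 reached 1000. The levels of the 11404 genes were alike in the 2 libraries: Pearson's r of log2(FPKM + 1) across genes, which are not independent replicates, was 0.992, and the median ratio of the higher to the lower FPKM was 1.11.

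Gapdh, an enzyme of glycolysis, was the most abundant gene, at 7893 and 8033 FPKM. It was followed by Eef1a1, a translation elongation factor, at 5250.1 and 4989 FPKM and by Fth1, the heavy chain of the iron store ferritin, at 2704 and 2731 FPKM. Vim, the filament protein vimentin, came next at 2171 and 2323 FPKM, and Lgals1, a galactoside-binding protein, had 2269 and 2131 FPKM. Of the 20 most abundant genes, 7 encode enzymes of glycolysis and 4 encode ribosomal proteins. The glycolysis genes were Gapdh, Pkm, Gpi1, Eno1, Aldoa, Ldha and Pgk1, the ribosomal ones Rpl23a, Rpl41, Rps26 and Rpl26. The remaining ones were Eef1a1, Fth1, Vim, Lgals1, the proline isomerase Ppia, the chromatin protein Ptma, the tubulin Tuba1a, the growth-associated Tpt1 and the actin-binding Cfl1. Together the 20 genes held 9.68% of the summed FPKM in Con and 10.0% in control NSC 8. The 83 ribosomal protein genes held 12.1% and 11.7%. In all of the PQ and NAC libraries, 13 of the 20 were also among the top 20.

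**Figure D1:**
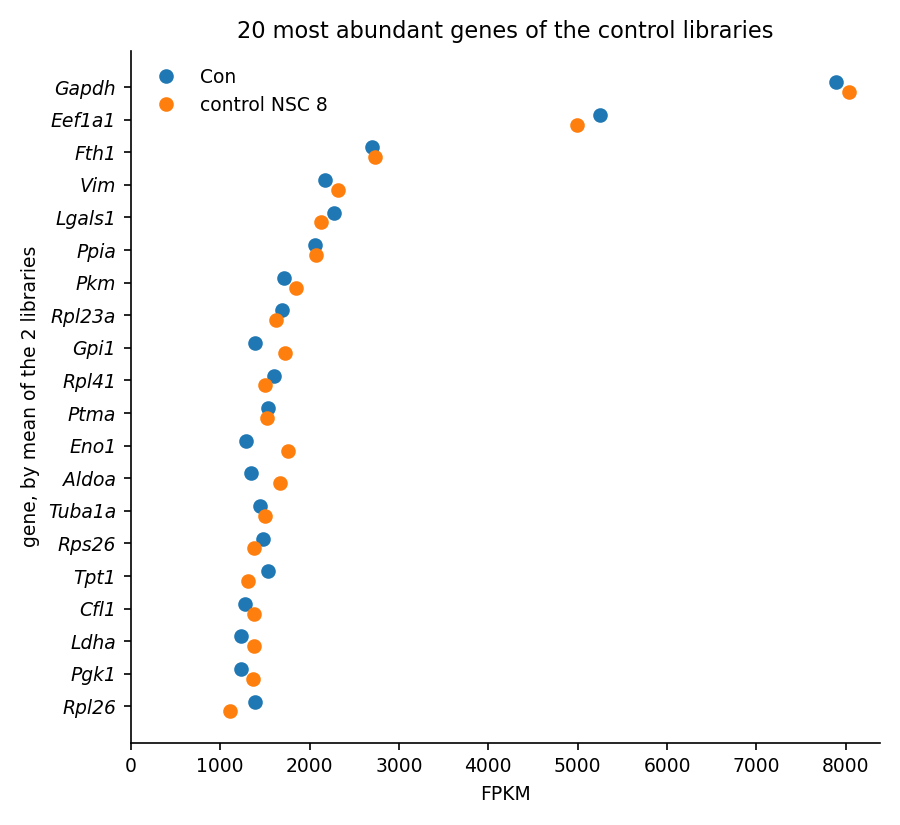
FPKM of the 20 genes with the highest mean over the control libraries, with 1 point per library. Gapdh and Eef1a1 stand apart from the others, and Eno1, Gpi1 and Aldoa are higher in control NSC 8 than in Con.

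Just below these lay genes chosen for mention after their values were seen. Odc1, the enzyme that makes polyamines, ranked 26 of 15988 genes at 1157 and 1126 FPKM. Mt1, a metal-binding protein, had 970.3 and 1143 FPKM, and Igfbp3, a secreted carrier of insulin-like growth factors, 1092 and 976 FPKM. Ccnd1, the cyclin D1 that drives cells through G1, ranked 37 at 966 and 999 FPKM. The most abundant gene not annotated as protein coding was Bc1, a short RNA of 154 bases known from neurons, at 753 and 576 FPKM.

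Of the 4 genes that the label leads one to look for, all were expressed. Nes (NCBI gene 18008), the filament protein nestin, had 87.7 and 91.9 FPKM. Sox2 (NCBI gene 20674) had 164 and 141 FPKM and Olig2 (NCBI gene 50913), a transcription factor of oligodendrocyte progenitors and of dividing progenitors, 321 and 328 FPKM. Vim (NCBI gene 22352) had the highest level of the 4. Between the control libraries, the log2 differences, Con minus control NSC 8, were -0.05 for Nes, 0.24 for Sox2, -0.08 for Vim and -0.01 for Olig2. Of 42 genes of neural stem cells and radial glia, 37 were expressed in both libraries, and the list's median was 31.4 FPKM in Con and 33.0 in control NSC 8, against 5.41 and 5.60 over all genes of the tables.

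Within that list the levels were uneven. Fabp7, a fatty acid carrier of radial glia, had 800.5 and 741 FPKM, and the tetraspanins Cd81 and Cd9 of the cell membrane had 395 and 422 FPKM (Cd81) and 284 and 290.1 FPKM (Cd9). Slc1a3, the glial glutamate transporter, had 106 and 92.0 FPKM and Sox9, a factor of glia, 38.4 and 47.1. Egfr, the receptor for the EGF in the medium, had 30.0 and 27.4 FPKM. Other members often used to define stem cells were at or near 0. Prom1, which encodes CD133, had 2 and 0 expected counts, Hes5, a target of Notch, 1 and 0, and Thbs4 0 and 0, while Id4 was absent from every table. Gfap, a filament of astrocytes and of adult stem cells, had 44 and 59 expected counts.

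The oligodendrocyte list was split. Olig1 had 320.4 and 414 FPKM, Nkx2-2 22.9 and 20.3 and Sox8 34.5 and 32.5, all factors of that lineage, and Cnp, an enzyme of myelin, had 55.1 and 61.8. Pdgfra, the receptor of oligodendrocyte progenitors, had 8.92 and 9.94 FPKM and Cspg4, which encodes NG2, 0.91 and 0.92. By contrast, Sox10 and Gpr17 had 0 counts in both libraries, and of 11 genes of myelinating cells 6 were not detected, meaning at most 3 counts in each library. Mog, Mag and Opalin were absent from all 6 tables, Mobp, Cldn11 and Mal had 0 counts, and Mbp had 0.1 and 0.29 FPKM.

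Astrocyte genes were present in part: 15 of 18 were expressed in both libraries, with a median of 12.8 and 13.1 FPKM. Gja1, a gap junction protein, was the highest of them, at 128 and 124 FPKM, and Acsbg1, an enzyme of lipid metabolism, had 70.1 and 72.2. Aqp4, the water channel, had 0.79 and 0.7 FPKM, S100b 0.85 and 0.42, and Gjb6 0 counts. Of 39 neuronal genes 11 were expressed in both libraries, with a list median of 0.13 and 0.18 FPKM. Stmn1 (384 and 348 FPKM) and Sox4 (78.6 and 82.9) led the genes of young neurons, yet both are also expressed in dividing cells. Dcx, the marker of migrating neuroblasts, had 0.01 and 0.08 FPKM, and Neurog2, Dlx5 and Sp8 were absent from all tables. Among genes of mature neurons, Map2 had 35.6 and 34.2 FPKM and the neurofilaments Nefl and Nefm had 38.8 and 42.6 (Nefl) and 22.7 and 23.2 (Nefm), but Rbfox3, which encodes NeuN, was absent, and Snap25 had 0.24 and 0.38. Other genes of young neurons were expressed, with Sox11 at 18.6 and 18.7 FPKM, Dlx1 at 5.65 and 4.86 and the tubulin Tubb3 at 2.38 and 1.30, the last with fractional counts. Of 13 genes of oligodendrocyte progenitors, 9 were expressed in both libraries. In bulk RNA, fewer cells of a type and less RNA per cell cannot be told apart.

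Most markers of other cell types were near 0. Of 57 such genes, 36 were not detected and 9 were expressed in both libraries, and their summed FPKM was 68.8 in Con and 69.5 in control NSC 8. The most abundant one was Tfap2a, a factor of neural crest and skin, at 35.0 and 36.3 FPKM, followed by Flt1, a receptor for VEGF, at 12.4 and 13.3 FPKM. For microglia and blood, Aif1, Tmem119 and Trem2 had 0 counts in both libraries and Ptprc 0 and 1, with a sum of 3.2 and 2.9 FPKM over 10 genes led by P2ry12. For endothelium, Cdh5 had 0 counts and Cldn5 was absent, and Flt1 was almost the whole of the summed 12.8 and 13.8 FPKM over 8 genes. Pericytes and fibroblasts gave 6.1 and 6.2 FPKM over 9 genes, most of it Col3a1, a fibrillar collagen, at 4.97 and 5.11, with Pdgfrb and Lum at 0 counts. Ependyma and choroid plexus gave 9.3 and 7.6 FPKM over 8 genes, led by Foxj1, the factor of motile cilia, at 4.87 and 4.48, with Ttr absent. Red blood cell genes were at 0. Of the 6 genes of pluripotent cells, Nanog alone was expressed, at 1.00 and 1.09 FPKM, with fractional counts of 13.2 and 14.7, so its level is uncertain. Pou5f1 and Zfp42 were absent. Of 64 genes typical of liver, muscle, lymphocytes, gut and other organs, 50 were not detected. The highest was Cyp2e1, a cytochrome that oxidises ethanol, at 18.5 and 11.1 FPKM, with fractional counts in some libraries.

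**Figure D2:**
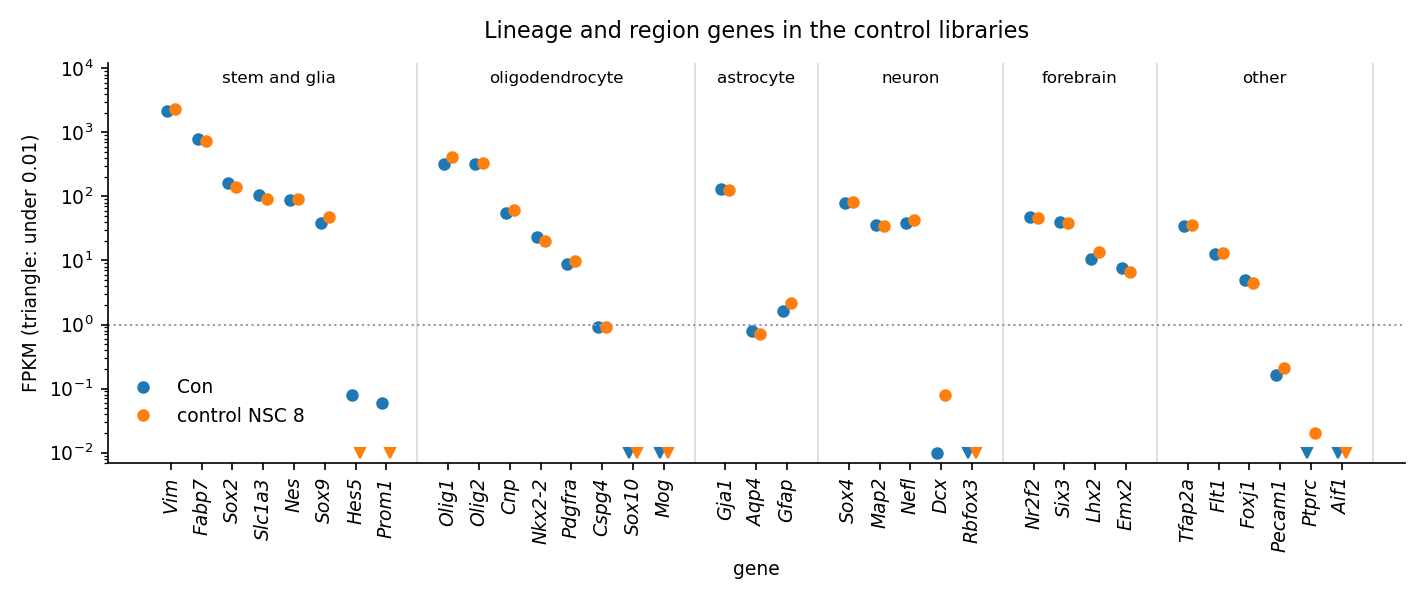
FPKM, on a log axis, of genes of neural and other cell types in Con and control NSC 8, with 1 point per library, triangles for values under 0.01 and a dotted line at 1 FPKM. Vim, Fabp7 and the Olig genes are high, whereas Sox10, Mog, Dcx and Rbfox3 are at or near 0 in both libraries.

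The subventricular zone lies in the forebrain. Of the factors of that region, Emx1, Otx2, Gsx1 and Gsx2 were absent from all tables. Other forebrain factors were expressed: Nr2f2 had 47.2 and 46.3 FPKM, Six3 40.5 and 38.8, Lhx2 10.6 and 13.6 and Emx2 7.76 and 6.54. In all, 14 of 28 forebrain genes were expressed in both libraries, against 10933 of 21900 protein coding genes and 11404 of 17254 genes of the tables.

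At the same time, genes of the hindbrain and spinal cord were present. HOX genes set position along the body axis and are off in the forebrain. In the HoxA cluster, Hoxa2 had 4.31 and 3.44 FPKM and Hoxa3 11.8 and 12.1. Levels were higher further along the cluster, with Hoxa4 at 15.6 and 14.6 FPKM and Hoxa5 at 24.2 and 24.7. Hoxa7 had 13.8 and 12.5 FPKM, with Hoxa6 between them at only 0.45 and 0.59. The 4 genes beyond, Hoxa9, Hoxa10, Hoxa11 and Hoxa13, were not detected. None of the 28 genes of the HoxB, HoxC and HoxD clusters was expressed, 27 of them were not detected, and their summed FPKM was 0.2 in each library. Of the midbrain and hindbrain factors, Irx3 had 7.17 and 6.30 FPKM, Irx5 5.95 and 5.77, Lmx1b 3.13 and 3.15 and En1 2.38 and 3.19, while Pax2, Pax5 and Pax7 were not detected. The regional code was thus mixed in both libraries.

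Of 326 transcription factors looked at, 254 were expressed in both libraries. The highest was Ybx1, a cold shock protein that binds DNA and RNA, at 736 and 710.4 FPKM, then the chromatin protein Hmgb1 at 523 and 462. Olig1 and Olig2 ranked next, ahead of Atf4, the main factor of the amino acid and stress response, at 277 and 189.9 FPKM. Tcf12, a partner of OLIG factors, had 219 and 219.8 FPKM and Etv5, a target of FGF and EGF signals, 197 and 204. Nfe2l2, which encodes NRF2, had 177 and 159.9 FPKM and Hmgb2 171 and 154. Jun, an AP-1 factor that growth signals induce, had 157 and 150.1 FPKM, close to Sox2. NFI factors of glia were expressed too, with Nfib at 59.7 and 63.1 FPKM and Nfix at 53.7 and 66.9, as were the YAP pathway genes Wwtr1 at 105 and 105 and Tead2 at 68.7 and 82.2. Myc had 32.1 and 36.9 FPKM, but Mycn only 0.7 and 0.88. In the list, 32 factors were not detected.

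Among 202 receptors, 137 were expressed in both libraries, against 11404 of 17254 genes of the tables and 10933 of 21900 protein coding genes. The adhesion receptors led. Itgb1, the integrin beta 1 chain, had 324 and 289 FPKM, Dag1, the dystroglycan that binds laminin, 194 and 222, and Cdh2, N-cadherin, 103 and 101. Of the growth factor receptors, Fgfrl1, which lacks a kinase, had 85.3 and 102 FPKM, Axl 77.9 and 86.1 and Fgfr1, the main receptor for the bFGF in the medium, 63.0 and 71.2. Fgfr1 exceeded Fgfr3 in FPKM by 4.92 and 4.61 times and Fgfr2 by 65.7 and 51.6 times. Egfr stood well above its relatives, with Erbb2 at 4.49 and 5.61 FPKM and Erbb3 at 0.08 and 0.2. Tfrc, which takes up iron, had 79.2 and 93.0 FPKM, the thrombin receptor F2r 80.7 and 80.6 and the orphan receptor Gprc5b 83.6 and 87.2. Adgrb2, an adhesion receptor of the brain, had 43.1 and 49.3 FPKM, and the potassium channel Kcnj10 of glia 32.8 and 35.9. Of 22 ion channels, 8 were expressed, and the glutamate receptors Gria1, Grik2 and Grin2b were not detected.

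Of the 74 ligands, 40 were expressed in both libraries, near the share of 10933 of 21900 over all protein coding genes. Spp1, which encodes osteopontin, led with 408 and 399.8 FPKM, then Vegfa, a signal to blood vessels, with 279 and 286. Ptn, a growth factor bound by PTPRZ1, had 125 and 121 FPKM, Ccl2, which draws monocytes, 108 and 84.8, and Wnt7b 95.7 and 115. Wnt7b exceeded Wnt7a in FPKM by 81.1 and 96.6 times. The cells made little of the factors supplied in the medium, with Egf at 0.32 and 0.25 FPKM and Fgf2, which encodes bFGF, at 1.06 and 0.3, but they expressed other ligands of EGFR: Hbegf had 91.6 and 84.7 FPKM, Areg 43.0 and 34.4 and Ereg 7.58 and 6.62. Cxcl10 had 66.8 and 64.3 FPKM, Cxcl1 94.6 and 57.0, Il33 70.6 and 66.8 and Cx3cl1 36.8 and 43.8, whereas the inflammatory cytokines Tnf, Il6 and Il1b had at most 1 count in each control library.

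Some receptors were expressed with little RNA for a ligand or a target. Smo and Ptch1, the receptors of hedgehog signalling, had 28.8 and 32.6 FPKM (Smo) and 14.1 and 16.8 FPKM (Ptch1), but Shh had 0 counts and Gli1, the target that reports on the pathway, 0.08 and 0.19 FPKM. Notch1 had 25.7 and 30.6 FPKM and Jag1, a ligand, 16.9 and 15.3, while Dll1 had 0.94 and 1.15 and Hes5 was not detected. Hes1, another target of Notch, was expressed at 37.8 and 35.4 FPKM. Cxcr4 had 13.3 and 13.5 FPKM and its ligand Cxcl12 1 and 0 expected counts. For BMP signals, Bmpr1a had 53.9 and 51.4 FPKM, Bmp4 and Bmp6 were not detected, and of the targets Id1 had 24.7 and 23.0 FPKM, Id2 56.2 and 63.0 and Id3 32.1 and 35.7. The ERK pathway, which EGF and FGF receptors feed, had its feedback and target genes on: all 9 genes looked at were expressed, with a median of 52.4 and 57.2 FPKM, among them Dusp6 at 75.2 and 75.4, Spry1 at 50.2 and 48.8 and Spred1 at 105 and 98.5. Fos, an immediate early gene, had only 4.20 and 5.02 FPKM.

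Of 38 genes of the extracellular matrix, 31 were expressed in both libraries. Sparc, a matrix protein of glia and vessels, had 394 and 422 FPKM, the syndecan Sdc3 157 and 185, and fibronectin (Fn1) 104 and 118. The laminin chain Lamc1 had 76.2 and 76.5 FPKM. Of the type IV collagens of basement membrane, Col4a5 had 39.8 and 45.7 FPKM, whereas Col4a1, usually the main one, had 0.44 and 0.45, so that Col4a5 exceeded Col4a1 by 90.5 and 102 times. Bcan, a matrix protein of the brain, had 50.7 and 56.1 FPKM.

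Genes of cell division were expressed, with all 39 cell cycle genes at 1 FPKM or more in both libraries and a list median of 46.6 FPKM in Con and 48.9 in control NSC 8. Mki67, a protein of dividing cells, had 101 and 104 FPKM, Top2a, which untangles DNA, 162 and 163, and Pcna, the clamp of DNA replication, 220.2 and 242. Among the D cyclins of G1, Ccnd1 had the highest level, while Ccnd2 had 80.6 and 80.3 FPKM and Ccnd3 17.7 and 27.5. Their kinase Cdk4 had 310.1 and 337 FPKM and exceeded Cdk6 by 39.2 and 45.9 times.

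In metabolism, all 24 glycolysis genes were expressed, with a median of 103 and 122 FPKM, and they held 4.37% of the summed FPKM in Con and 4.90% in control NSC 8. The glucose carriers Slc2a1 and Slc2a3 had 152 and 178 FPKM (Slc2a1) and 127 and 161 FPKM (Slc2a3). Ldha, the lactate dehydrogenase chain that favours lactate formation, had 1233 and 1374 FPKM and Ldhb 53.3 and 55.0. Aldoa exceeded Aldoc by 32.1 and 35.8 times, and Hk1 exceeded Hk2 by 4.70 and 4.88 times in FPKM. Slc16a3, an exporter of lactate, had 25.9 and 26.8 FPKM. Respiration was close to it by the median: all 39 genes of the respiratory chain and ATP synthase were expressed, with a median of 109 and 100 FPKM and 1.37% and 1.33% of the summed FPKM. Atp5b, a chain of ATP synthase, had 728 and 751 FPKM. Of 17 citrate cycle genes, 16 were expressed, and Pcx, the pyruvate carboxylase that refills the cycle and is typical of astrocytes, had 0.46 and 0.31 FPKM.

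Sterol and fatty acid synthesis had all 23 genes expressed and a median of 77.7 and 86.3 FPKM. Scd2, the desaturase of brain, had 751 and 909.6 FPKM and exceeded Scd1 by 3.85 and 3.91 times. Hmgcs1, an early enzyme of cholesterol synthesis, had 326 and 372 FPKM. Only 1 of the 23 was higher in Con than in control NSC 8, against 5366 of 10831 genes with 50 or more counts in the higher library. The list's median log2 difference was -0.22, against 0.00 over all genes and -0.10 between the PQ libraries in the same order of labels. Fasn, the fatty acid synthase, had 38.7 and 58.2 FPKM and a log2 difference of -0.57.

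Of 16 genes that respond to low oxygen, 15 were expressed, with a median of 61.6 and 63.4 FPKM against 5.41 and 5.60 over all genes. Ero1a, an oxidase of the endoplasmic reticulum, had 689 and 651 FPKM, Bnip3, which marks mitochondria for removal, 459 and 434, and Adm, a vessel-acting peptide, 179 and 197. Car9, often used as a marker of severe hypoxia, had 0.79 and 0.56 FPKM. Hif1a had 158 and 129.9 FPKM and Epas1, which encodes HIF2A, 2.29 and 2.77.

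Genes of redox defence were expressed before any treatment. Of 25 antioxidant genes, 24 were expressed, with a median of 45.9 and 45.4 FPKM. Gpx4, which clears lipid peroxides, had 327 and 267 FPKM, Prdx2 280.1 and 305 and Sod1, the cytosolic superoxide dismutase, 271 and 252. Sod1 exceeded the mitochondrial Sod2 by 12.8 and 11.7 times. All 22 genes of the NRF2 pathway were expressed, with Ftl1, the ferritin light chain, at 501 and 619 FPKM and Slc7a11, the cystine carrier, at 172 and 179. Nqo1, a frequent readout of NRF2, was low at 1.38 and 2.01 FPKM. Of 22 p53 targets, 21 were expressed, led by Cdkn1a and by Gadd45a, a DNA damage gene that ATF4 also drives, at 119.8 and 66.4 FPKM. In the heat shock list, the constitutive Hspa8 had 899.6 and 1062 FPKM, while the inducible Hspa1b had 1.58 and 2.09, and Hspb1 had 0 and 1 counts. The chaperones of the endoplasmic reticulum Hsp90b1 and Calr had 522 and 501 FPKM (Hsp90b1) and 387 and 412 FPKM (Calr), whereas Xbp1 had 23.1 and 25.4.

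Interferons were not detected, but genes that interferon induces were expressed. Of 17 interferon genes, 16 were absent from all tables and Ifnb1 had 0 counts in both control libraries, which at these depths allows up to 3.05e-05% of the counts of Con and 2.99e-05% of those of control NSC 8. The receptor chains Ifnar1 and Ifnar2 had 18.9 and 21.5 FPKM (Ifnar1) and 27.3 and 26.7 FPKM (Ifnar2). Of 39 interferon-stimulated genes, 34 were expressed, with a median of 9.20 and 8.76 FPKM. Ifitm3, which blocks viral entry, had 928 and 989 FPKM, and B2m, the light chain of MHC class I, 647 and 531, whereas Oas2 had 0.03 and 0.1 and Mx1 0.71 and 0.26. In DNA sensing, Sting1 had 43.2 and 45.3 FPKM and Cgas, the sensor upstream of it, 2.74 and 2.47.

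S-adenosylmethionine (SAM) metabolism and the lamins are subjects of the study. Mat2a, the SAM synthetase of most tissues, had 88.0 and 73.0 FPKM, and Mat1a, its counterpart in liver, was absent from all tables. Gnmt, which uses SAM to methylate glycine, had 1 and 2 expected counts and Nnmt 0 and 2, and Bhmt and Bhmt2 were absent. Ahcy, which clears the product of methyl transfer, had 43.1 and 43.9 FPKM. All 17 genes of the lamins, their processing and the inner nuclear membrane were expressed. Lmna had 87.3 and 81.6 FPKM and Lmnb1 70.3 and 73.2, while Icmt, which methylates lamins with SAM, had 5.74 and 7.24 and Zmpste24, the protease that matures lamin A, 26.6 and 23.2.

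Many genes were not detected at this depth. Of 21900 protein coding genes of the RefSeq table, 8819 (40.3%) had at most 3 counts in each control library, and 6239 of these were absent from all 6 tables. Only 4 genes had 50 or more counts in a PQ or NAC library and at most 3 in each control library: Gm2026, Fam177a, Eif3j1 and Omg, named after their values were seen. The counts of Gm2026, Fam177a and Eif3j1 were fractional and so are uncertain. Omg, a glycoprotein of myelin, had 2 and 3 counts in the controls and 56 and 31 in the NAC libraries.

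The control libraries were compared with each other on expected counts scaled by TMM (normalised counts). This is 1 library against 1 library, so it has no replicate check and no p-value. Of 10831 genes with 50 or more counts in the higher library, 22 (0.203%) were at least 2-fold apart, 16 higher in Con (0.148%) and 6 higher in control NSC 8. The central 95% of the log2 differences, Con minus control NSC 8, ran from -0.47 to 0.48. With a minimum of 20 counts, 110 genes were 2-fold apart, 55 of them higher in Con and 55 in control NSC 8, so the lean toward Con was not seen there. With 200 counts, 9 were, 8 of them higher in Con.

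Of the 16 genes higher in Con, 5 belong to the response that the factor ATF4 drives when amino acids run short or the kinases of eIF2 alpha are active. That is 5 of the 41 genes of the ATF4 pathway list with 50 or more counts, against 16 of 10831 genes (0.148%). The list was chosen with earlier results of these data known. ATF4 switches on genes of amino acid uptake, serine synthesis and tRNA charging, together with the regulators Ddit3 (CHOP), Atf3 and Trib3. Trib3, a pseudokinase that restrains the response, had 829.8 and 402 normalised counts in Con and control NSC 8, 2.06-fold apart with a 95% counting interval from 1.83 to 2.33. Ddit3 had 686 and 306, 2.24-fold apart (interval 1.95 to 2.58). Atf3 had 158 and 51.9, 3.05-fold apart (2.21 to 4.28), and Cth, which makes cysteine, had 80.8 and 25.4, 3.17-fold apart (2.00 to 5.20). Nupr1, a small stress-induced chromatin protein, had 2885 and 1379, 2.09-fold apart (1.96 to 2.23). All 5 had whole counts in every library. In the PQ libraries, in the order PQ and PQ NSC 9, Trib3 had 156 and 138, Ddit3 239 and 245, Atf3 52.8 and 63.9, Cth 10.6 and 16.8 and Nupr1 1511 and 1476, so that none of the 5 was 1.5-fold higher in PQ than in PQ NSC 9.

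Most of the list differed in the same direction. Of 41 genes of the ATF4 pathway with 50 or more counts, 36 were higher in Con, against 5366 of 10831 over all genes. The list's median log2 difference was 0.50, against 0.00 over all genes. In the PQ libraries the median of the same list was -0.06. Without the 5 genes at 2-fold the median was 0.46. The list's summed FPKM was 3627.3 in Con and 2580.5 in control NSC 8. Atf4 itself had 4972 and 3377 normalised counts, a log2 difference of 0.56. All 8 aminoacyl-tRNA synthetases, which load tRNA with amino acids, were higher in Con, with log2 differences from 0.37 to 0.59. Amino acid carriers ranged from -0.04 for Slc7a11, which NRF2 also drives, to 0.82 for Slc7a5, and Asns, which makes asparagine, had 0.73. By contrast, the 4 kinases that start the response ranged from -0.31 to 0.08, and the chaperone list of the unfolded protein response had a median of -0.02. The 11 serine and one-carbon genes, some of which (Phgdh, Psat1, Psph, Shmt2 and Mthfd2) are also on the ATF4 list, had a median of 0.18.

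**Figure D3:**
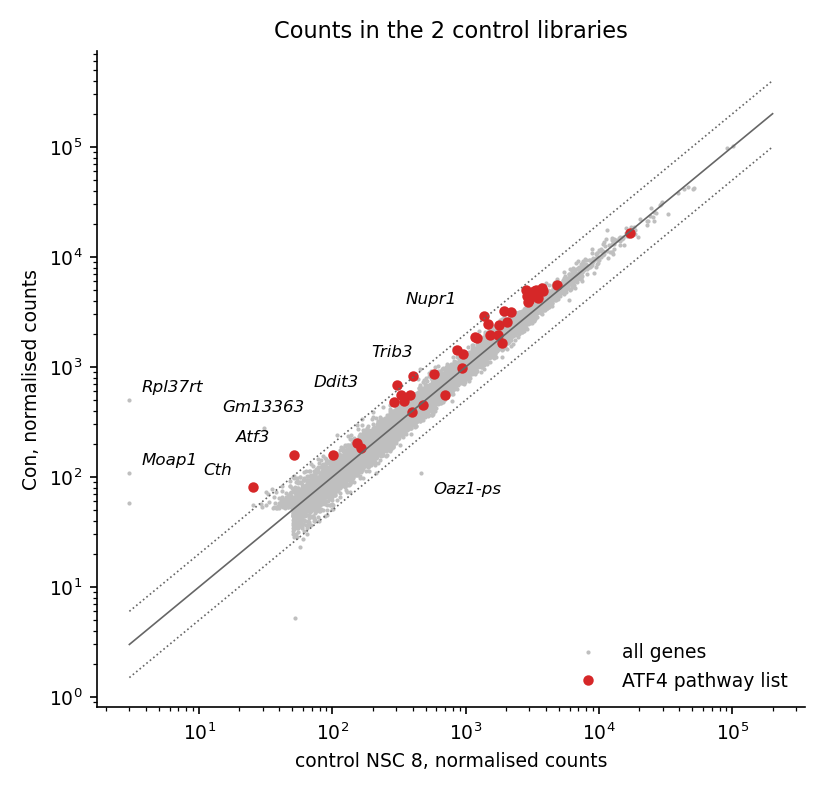
Normalised counts of 10831 genes in Con and control NSC 8, both on log axes, with values under 3 drawn at 3. The solid line marks equal counts, the dotted lines mark 2-fold, and the ATF4 pathway genes (red) lie mostly above the solid line.

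**Figure D4:**
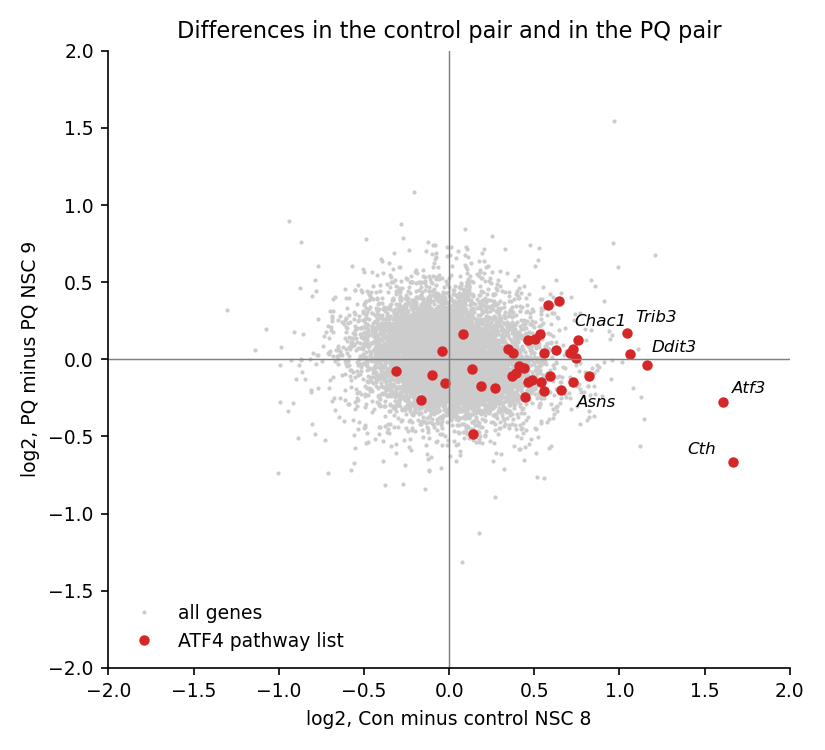
Log2 difference of each gene between the control libraries (Con minus control NSC 8) and between the PQ libraries (PQ minus PQ NSC 9), with axes limited to -2 and 2. The ATF4 pathway genes (red) are shifted to the right, with a median of 0.50, and not upwards, with a median of -0.06.

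Since many members of this list differed in the same direction, their promoters were searched for the letters TGATGNAA on both strands, the element that ATF4 binds together with C/EBP factors. Promoters from RefSeq (GRCm38.p6), which run from 250 bases before to 50 bases after the start, were found for 37 of the 44 genes. A match was present in some promoter of 11 of the 37 genes (29.7%), against 2.52% of genes with 50 or more counts. By single promoters of 300 bases, 11 of 45 held a match (24.4%), against 3.97% of all 32851. The 37 genes were not filtered by counts. They come from a list of genes known to be driven by ATF4, so a high share was likely from the outset. The share therefore says nothing about the difference between the control libraries. Stretches are shown of 5 promoters that hold a match. These 5 were picked because, among genes with a match, they had among the largest differences between the control libraries or against the PQ and NAC libraries. The match is in capitals and each stretch is on the strand of its gene. They are Trib3 at chr2:152344031-152344086 (minus strand), Chac1 at chr2:119351009-119351068 (plus), Asns at chr6:7693213-7693272 (minus), Nupr1 at chr7:126625561-126625620 (minus) and Atf3 at chr1:191183424-191183483 (minus).
Trib3: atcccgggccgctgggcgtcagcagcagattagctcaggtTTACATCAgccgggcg
Chac1: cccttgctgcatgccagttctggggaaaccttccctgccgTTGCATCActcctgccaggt
Asns: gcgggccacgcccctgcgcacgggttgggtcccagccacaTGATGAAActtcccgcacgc
Nupr1: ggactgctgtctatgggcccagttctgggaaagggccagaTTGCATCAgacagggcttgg
Atf3: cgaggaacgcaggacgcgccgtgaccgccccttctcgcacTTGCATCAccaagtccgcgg
Trib3, Chac1, Nupr1 and Atf3 hold the element in reverse. Counted from the start site as base 1, the match begins at base 15 in Trib3, -193 in Chac1, -23 in Asns, -110 in Nupr1 and -110 in Atf3. Ddit3, Sesn2 and Atf4 had no match in this window. Slc7a11 and Aars held 2 matches each, and Slc7a11 had a log2 difference of only -0.04 between the control libraries. A match describes the letters and is neither a site nor a cause.

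Of the genes that were 2-fold apart, 10 had a fractional count in some library and are uncertain. Rpl37rt, a copy of a ribosomal protein gene, had 501 and 0 normalised counts in Con and control NSC 8. By the lower limit of the 95% counting interval, in which the 0 was kept, these were at least 133-fold apart. Moap1, a regulator of apoptosis, had 108 and 0, at least 28.3-fold apart, and Btg3 had 58.5 and 0, at least 15.1-fold apart. Gm13363 was 8.94-fold higher in Con. In the other direction, Gm44502 was 9.95-fold and Oaz1-ps 4.2-fold higher in control NSC 8. Both Gm13363 and Oaz1-ps are transcribed pseudogenes. Beside the 5 genes of the ATF4 pathway, those with whole counts were Rpl36, a protein of the large ribosomal subunit, with 954 and 451, Otub2, a deubiquitinase, with 339 and 168, Tph2 and Pcgf1, all higher in Con, and Rpusd3, Tlcd3b and the copper pump Atp7b, higher in control NSC 8. Ifit3b, induced by interferon, had 73.4 and 31.7 normalised counts, with fractional counts. Nkain3, with 238 and 108, and Med12l, with 30.4 and 64.1, also had fractional counts. Tfap2a, the most abundant gene of the other cell types, had a log2 difference of -0.03 and Flt1 one of -0.08.

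A test across all 6 libraries asked which genes differed between the label sets, Con and PQ on one side and the other 4 on the other, with treatment in the model. Both NAC libraries are on the same side, so the difference was estimated from the control pair and the PQ pair. The NAC libraries added only to the estimate of spread. By edgeR's quasi-likelihood test, 2 of 11717 genes passed an adjusted p under 0.05 (0.0171%), while 349 genes (2.98%) had an unadjusted p under 0.05 and DESeq2 called 1 gene. No member of any list passed. A difference seen in the control pair but not in the PQ pair counts as spread in this test. It could therefore hardly call the ATF4 pathway genes, and their absence decides nothing about the control pair. The called genes were Moap1, which had 103 and 88.5 expected counts in Con and PQ, 0 in control NSC 8 and in PQ NSC 9, and 67.6 and 22.7 in the NAC libraries, and Oaz1-ps, which had 104 and 82.7 against 451 and 269, and 146 and 263 in the NAC libraries. Both have fractional counts, and Oaz1-ps missed the threshold by DESeq2 (adjusted p = 0.21). The count rested on the libraries kept: it was 7 without Con, 7 without control NSC 8, 65 without PQ, 66 without PQ NSC 9, and 12 without either NAC library. Across genes, the difference between the control libraries and that between the PQ libraries had a Pearson's r of -0.10 (10831 genes, which share depth and length and are not independent).

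Last, the control libraries were set against the PQ and NAC libraries together, in 1 contrast of control minus the mean of both treatments. By edgeR's quasi-likelihood test, 1563 of 11717 genes (13.3%) passed an adjusted p under 0.05, 800 higher in control (6.83%) and 763 lower (6.51%). Without the library titled PQ the count was 966. Both control libraries lay above all 4 treated libraries for 534 of the 800 genes and below them for 593 of the 763.

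ATF4 pathway genes were higher in control in 34 of 41 tested, against 6.83% of all genes, with a median log2 difference of 0.89, and 2 were lower. For 30 of the 34, both control libraries lay above all 4 others. Chac1, which breaks down glutathione, had 553 and 327 normalised counts in control, 78.8 and 72.3 in PQ and 33.7 and 41.0 in NAC, so that edgeR gave a log2 difference of 3.04 with a standard error (SE) of 0.18 (adjusted p = 5.8e-09). The promoter of Chac1 is among those shown above. Asns had 3196 and 1931 in control, 935 and 1036 in PQ and 603 and 533 in NAC, and an edgeR log2 difference of 1.77, SE 0.13 (adjusted p = 9.1e-08). Trib3 had 75.8 and 96.0 in NAC, and edgeR put its log2 difference at 2.45, SE 0.20 (adjusted p = 1.8e-07). The control libraries were therefore apart both from each other and from the treated ones for these genes, and Con was the highest of the 6 libraries in each of the 3. Serine and one-carbon genes were higher in control in 7 of 11, against the same 6.83%, all 7 above the 4 treated libraries, with Shmt2, a mitochondrial enzyme of serine use, at 3918 and 2946 in control, 1248 and 1289 in PQ and 1251 and 1280.3 in NAC.

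Hypoxia genes were higher in control in 12 of 15, against 6.83% of all genes, and 8 of the 12 lay above all 4 treated libraries, close to the 534 of 800 over all genes. Vegfa had 9739.7 and 9831 normalised counts in control, 6794 and 7962 in PQ and 4454 and 5641 in NAC. Glycolysis genes were higher in 18 of 24, against the same 6.83%, and 9 of these lay above all 4 others, while 2 were lower, against 6.51%. For Gapdh the control libraries, at 100914 and 101564, lay beside the PQ libraries, at 94287 and 103833, and the NAC libraries were lower, at 53778 and 59042. In the other direction, 22 of 54 genes of interferon and DNA sensing were lower in control, against 6.51% of all genes, and 0 were higher by edgeR or by DESeq2. Gbp2, a GTPase induced by interferon, had 301 and 254 normalised counts in control, 1052 and 890.4 in PQ and 1223 and 1199 in NAC. Other lists also stood away from these shares. Cell cycle genes were higher in control in 18 of 39, with 3 of the 18 above all 4 treated libraries, and 0 were lower. For p53 targets 8 of 21 were lower and 1 was higher, and for immediate early genes 8 of 26 were lower and 0 higher.

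By size alone, the 5 largest differences toward control among genes on one side of all treated libraries were those of a gene without a symbol in the RefSeq table, Mir546, Chac1, Trib3 and Cth, of which the unnamed gene and Mir546 had fractional counts. Mir546 had 8.4 and 14.2 normalised counts in control, 5.8 and 2.1 in PQ and 0 and 0 in NAC, so the size of its difference rests on few counts. The unnamed gene missed the threshold by DESeq2 (adjusted p = 0.18). The 5 largest in the other direction were Gm2026, with 0 counts in both control libraries and fractional counts elsewhere, Lalba, Tgtp2, Ifi47 and Tlr2. Ifi47 also had fractional counts and was low in control, at 9.4 and 4.1 normalised counts. Tlr2, a receptor for bacterial lipoproteins, had 22.0 and 23.4 normalised counts in control, 109.6 and 73.6 in PQ and 111 and 104 in NAC, and an edgeR log2 difference of -2.12, SE 0.24 (adjusted p = 8.6e-06). Tgtp2, a GTPase induced by interferon, had 10.5 and 0 in control, 48.1 and 52.6 in PQ and 32.7 and 38.9 in NAC, with fractional counts, and missed the threshold by DESeq2 (adjusted p = 0.091). Lalba, a milk protein, had 2.1 and 0 in control, 6.7 and 3.2 in PQ and 37.4 and 30.0 in NAC, so that its control and PQ libraries were close to the floor. Without Con, Cth no longer passed the threshold (adjusted p = 0.059 by edgeR), and Lalba did not pass without control NSC 8 (0.052) or without PQ (0.074).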

How the data were processed

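RNA sequencing of 6 libraries was used, each as a table of genes with the expected counts and FPKM that the authors deposited. The submitters' processing notes name bcl2fastq 2.17, cutadapt, TopHat2 2.0.11 and Cufflinks 2.1.1 for Con and PQ, and HISAT2 2.0.4, Bowtie2 2.2.5 and RSEM for the others, although all 6 tables have the same columns and layout. A gene missing from a table was taken as 0, and NCBI gene numbers were mapped to mouse symbols with RefSeq. Counts within 0.001 of a whole number were called whole. Among genes with counts, 21.0% in Con and 21.2% in control NSC 8 had fractional counts, as arise where reads are divided among sequences.

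A gene was called expressed at 1 FPKM or more in both control libraries and not detected at 3 or fewer counts in each. The control libraries were compared in counts scaled by TMM, among genes with 50 or more counts in the higher library, with values under 3 set to 3. Rounded expected counts of genes with a mean FPKM of 1 or more were tested with edgeR 4.0.16 (quasi-likelihood) and DESeq2 1.42.0 in R 4.3.3, and p-values were adjusted by Benjamini and Hochberg's method, with 0.05 as the threshold. Intervals (95%) and floors cover counting error only.

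The comparisons, the alternatives, the 32 gene lists (1329 distinct genes) and the promoter motif were chosen with earlier results of these data known, the lists from general knowledge. Genes named by rule were the 20 most abundant, the highest members of each list and members not detected. Between the control libraries, the 10 largest differences toward Con and all 6 of 2-fold toward control NSC 8 were named. Against PQ and NAC, the 5 largest in each direction were named. Other list members were named after their values were seen. Alternatives were other scalings, thresholds, filters and tools, a label set term, and leaving out each library.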

Additional observations from a re-analysis of the deposited data

How the results depend on the processing

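The count of genes expressed in both control libraries stayed within 1.5 times its value with thresholds of 0.5 or 5 FPKM, 1 TPM or more than 3 counts, from 8688 to 13183. The count of genes 2-fold apart between the control libraries was 22 to 26 under the 4 scalings tried, TMM included. It was 110 with a minimum of 20 counts, 9 with 200 counts and 253 at 1.5-fold (137 higher in Con), as these settings admit more or fewer genes. The label set count of 2 was 12 without a filter on low values, 1 by DESeq2's Wald test, 11 with only the control and PQ libraries, and 7 to 66 on leaving out 1 library, and the cause was not tested. Leaving out a library can leave a group with 1 sample, which is then assumed to vary like the others. The count of 1563 for control against PQ and NAC was 131 among genes at least 2-fold apart, a subset by construction (49 higher in control and 82 lower), and 966 to 1520 on leaving out 1 library, lowest without PQ.

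Under 3 other scalings, the log2 differences of Trib3, Ddit3, Atf3, Cth and Nupr1 and the medians of the ATF4, S phase, serine and sterol lists gave 27 values, all with the same sign and close to those under TMM. Each gene tried in the edgeR tests had its value recomputed under every alternative of its test. Of these values, 192 kept their direction and their side of the threshold and 8 kept the direction but missed the threshold. Among the latter, Atf3 missed it by DESeq2 (adjusted p = 0.18) and without Con in edgeR (0.75). Tgtp2 (0.091) and the unnamed gene (0.18) missed it by DESeq2. More 2-fold differences were found when genes with fewer counts were admitted, and whether these exceed counting error was not tested. Each group has 2 libraries.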
